A study of Mus musculus with 59 samples.

Results

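The genes examined were 10 that work on lymphocytes has tied to the transcriptional repressor BCL6: *Bcl6* itself, *Prdm1*, *Irf4*, *Bach2*, *Cdkn1a*, *Cdkn1b*, *Ccnd1*, *Ccnd2*, *Myc* and *Cd80*. They were chosen by name from 21000 mouse protein-coding genes, with no measured value in the rule. A peak was assigned to a gene when its center lay inside the gene, or when the nearest protein-coding RefSeq transcription start site (TSS) belonged to the gene and was within 100 kb. By this rule 212 of 102931 peaks in 7 lists were assigned to the 10 genes.

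The lists came from chromatin immunoprecipitation and sequencing (ChIP-seq) of whole liver for BCL6 and for the nuclear receptors PPARα and PPARδ. For each factor, livers of wild-type (WT) C57BL/6 mice were taken after *ad libitum* feeding and after an overnight fast. BCL6 was also mapped in fed Bcl6 fl/fl mice, which carry loxP sites in *Bcl6* and no Cre, so that BCL6 is intact. The sample titles call these floxed livers WT, but here WT stands for the C57BL/6 mice whose genotype label is WT. Each list is a set of positions called over 3 livers together, without a height or score, so no list has a replicate error of its own and no test between lists could be made. The age and sex of the mice are not given in the sources used here. Other cells of the liver, lymphocytes and Kupffer cells included, were part of the chromatin, and more cells with a site could not be told apart from more occupancy per cell.

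BCL6 is a zinc finger repressor that recruits corepressors and histone deacetylases. In germinal center B cells and follicular helper T cells it holds back plasma cell differentiation, cell cycle arrest and activation genes, and in B cells it represses its own gene through elements in the first exon. PPARα is the nuclear receptor that drives fatty acid oxidation in the fasted liver, and PPARδ is its close relative.

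*Bcl6* and *Bach2* held most of the BCL6 peaks, *Prdm1* held a few, and *Irf4* and *Cd80* held no peak in any of the 7 lists. How many of all genes lacked a peak in all 7 lists was not counted. In fed WT livers, 33 BCL6 peaks were assigned to the 10 genes, of which 25 lay at *Bcl6* or *Bach2*. In fasted WT livers there were 22, and in fed Bcl6 fl/fl livers 43. For PPARα, 40 peaks were assigned to them in fed and 51 in fasted livers, and for PPARδ 16 and 7. Lists differed in size, from 2399 peaks for PPARδ in fasted livers to 29085 for PPARα in fasted livers, and the 10 genes took between 0.175% and 0.292% of each.

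At least 1 fed BCL6 peak was present at 6 of the 10 genes, where 29.0% of all protein-coding genes had 1. In fasted livers 5 of 10 had a BCL6 peak, against 21.5% of all genes, and in Bcl6 fl/fl livers 7 of 10, against 32.0%. For PPARα the counts were 6 in fed and 7 in fasted livers, against 35.5% and 47.6% of all genes. For PPARδ they were 5 and 5, against 19.3% and 9.01%. The genes differ in length and in the distance to their neighbors, so the counts were also set over the territory in which a peak would be assigned to the gene. The 10 genes had 23.9 fed BCL6 peaks per Mb of territory, and all protein-coding genes had 7.67. *Bcl6*, with 82.8 per Mb, and *Bach2*, with 40.3 per Mb, carried that density. The other 8 genes together had 8 BCL6 peaks in fed WT livers, or 8.87 per Mb, close to the value over all genes. In fed Bcl6 fl/fl livers these 8 genes had 14, or 15.5 per Mb, against 8.78 over all genes. In fasted WT livers they had 6, or 6.66 per Mb, against 4.80. The median gene of the 10 had 1 fed BCL6 peak, and the median of all genes was 0. The 10 genes also had 28.9 fed PPARα peaks per Mb, against 10.9 over all genes, and 11.6 fed PPARδ peaks per Mb, against 3.73. Without *Bcl6* and *Bach2* these densities were 13.3 for fed PPARα and 5.55 for fed PPARδ, nearer to the values over all genes.

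**Figure D1:**
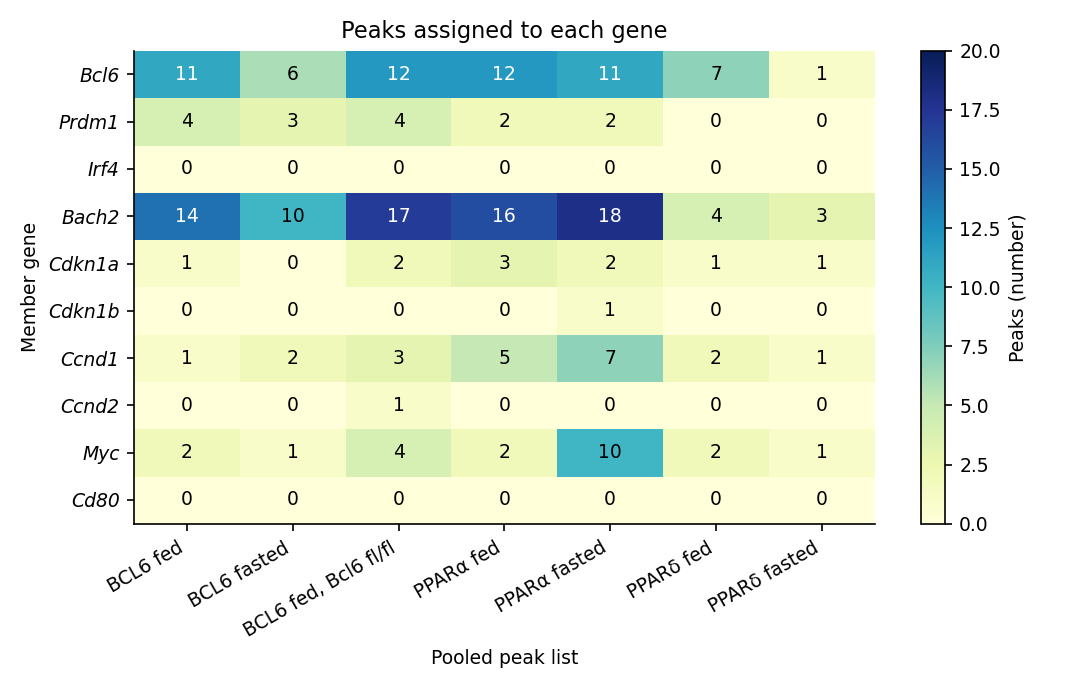
Number of peaks assigned to each of the 10 genes (rows) in each pooled peak list (columns), with the number written in each cell and shown by its color. *Bach2*, with 14 fed BCL6 peaks, and *Bcl6*, with 11, hold most peaks, and the rows of *Irf4* and *Cd80* are at 0 throughout.

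The same counts were made for markers of liver cell types. Which cells the chromatin came from was not tested by them. Each of the 11 hepatocyte markers that matched the annotation had a fed BCL6 peak, with a median of 5 peaks and 69.5 peaks per Mb. Of 12 B or T lymphocyte markers, 3 had a fed BCL6 peak, each with 1, and none had a fasted BCL6 peak, where 29.0% and 21.5% of all genes had 1. None of 8 Kupffer cell markers had a BCL6 peak in any list. The plot of peak density by gene list shows the 10 genes pooled, *Bcl6* and *Bach2* included. A wider list of 25 genes that lymphocyte work names as repressed or opposed by BCL6 had fed BCL6 peaks at 10 genes and fasted BCL6 peaks at 8, against the same 29.0% and 21.5% of all genes, with 16.7 fed peaks per Mb. The most fed BCL6 peaks were at *Rora*, an orphan nuclear receptor, with 26 of the 63 in a territory of 834 kb. Without *Rora* the list had 12.6 fed peaks per Mb. *S1pr1*, a sphingosine phosphate receptor, had 9, and *Id2*, an inhibitor of helix-loop-helix factors, had 6. *Bcl2l1*, which encodes the survival factor BCL-XL, and *Notch2* had 5 each. *Cd44*, *Ccl3*, *Gpr183*, *Bcl2*, *Trp53*, *Chek1*, *Tbx21*, *Gata3*, *Runx3* and *Ifngr1* had no BCL6 peak in any of the 3 BCL6 lists.

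**Figure D2:**
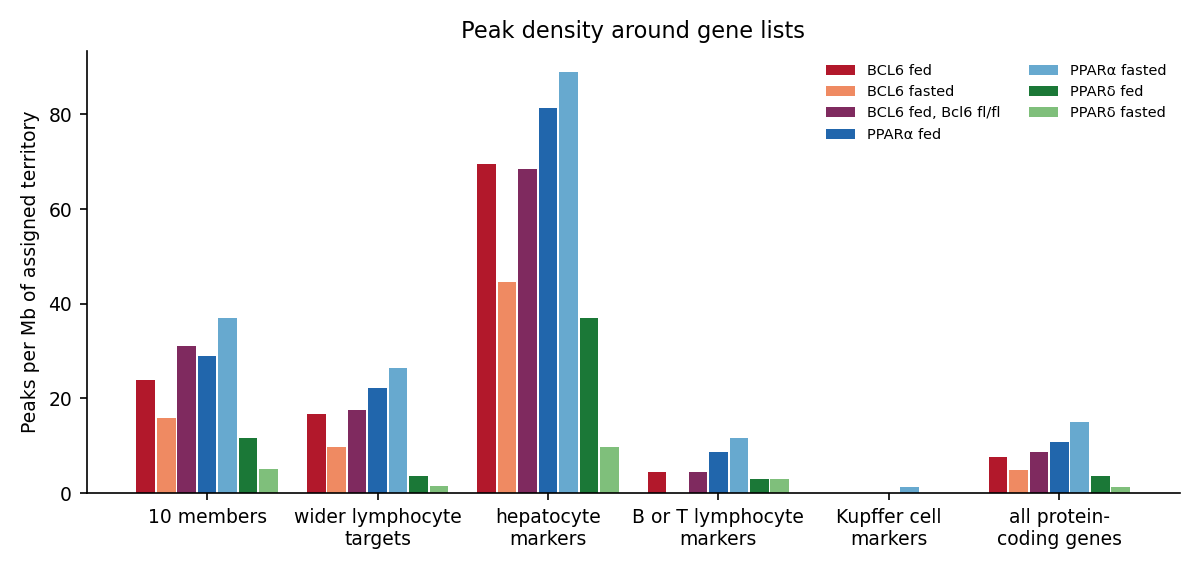
Peaks per Mb of the territory assigned to the genes of each list (y axis), for 6 gene lists (x axis) and 7 pooled peak lists (bars by color, starting at 0). The fed BCL6 bar is at 23.9 for the 10 genes, 69.5 for hepatocyte markers, 4.39 for lymphocyte markers, 0 for Kupffer cell markers and 7.67 for all genes.

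*Bcl6* encodes the repressor itself, and peaks at its own gene bear on whether BCL6 occupies the autoregulatory elements known from B cells. The gene lies on the minus strand at chr16:23965050-23988866 (mm10) and has 2 curated TSSs, and the distances below are to the nearer. BCL6 had 11 peaks there in fed WT livers, 6 in fasted WT livers and 12 in fed Bcl6 fl/fl livers. The PPARα lists held 12 peaks there for the fed and 11 for the fasted state, and the PPARδ lists 7 and 1. Among all protein-coding genes, 0.329% had as many fed BCL6 peaks or more, and 0.205% had as many fed PPARδ peaks or more. The counts at *Bcl6* depended on the reach of 100 kb. With a reach of 50 kb, 5 fed, 3 fasted and 5 Bcl6 fl/fl BCL6 peaks stayed with *Bcl6*. For PPARα 4 fed and 5 fasted peaks stayed, and for PPARδ 2 and 0. PPARα thus stayed near the same number at *Bcl6* in both states, while BCL6 and PPARδ had fewer peaks there in fasted livers. BCL6 and PPARδ peaks also fell over the whole lists, by 38.5% and 67.3%, and PPARα peaks rose by 35.8%.

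When peak centers within 200 bp were joined across the 6 WT lists, *Bcl6* had 17 sites, 4 inside the gene and 13 upstream. BCL6 was called at 11 of them, at 5 in fed livers only, at 6 in both states and at none in fasted livers only. All 6 fasted BCL6 peaks at *Bcl6* were thus a subset of the fed ones. The 5 sites called only in fed livers lay in exon 1, 0.232 kb from the TSS, and 45.8, 68.4, 80.7 and 89.4 kb upstream. The 6 sites kept in both states lay in intron 1, 1.69 kb from the downstream TSS, and 7.71, 23.3, 55.1, 72.8 and 90.0 kb upstream. PPARα was called at 9 of the 11 BCL6 sites and at 14 of the 17 sites in all. The site 55.1 kb upstream was called for all 3 factors in both states.

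**Figure D3:**
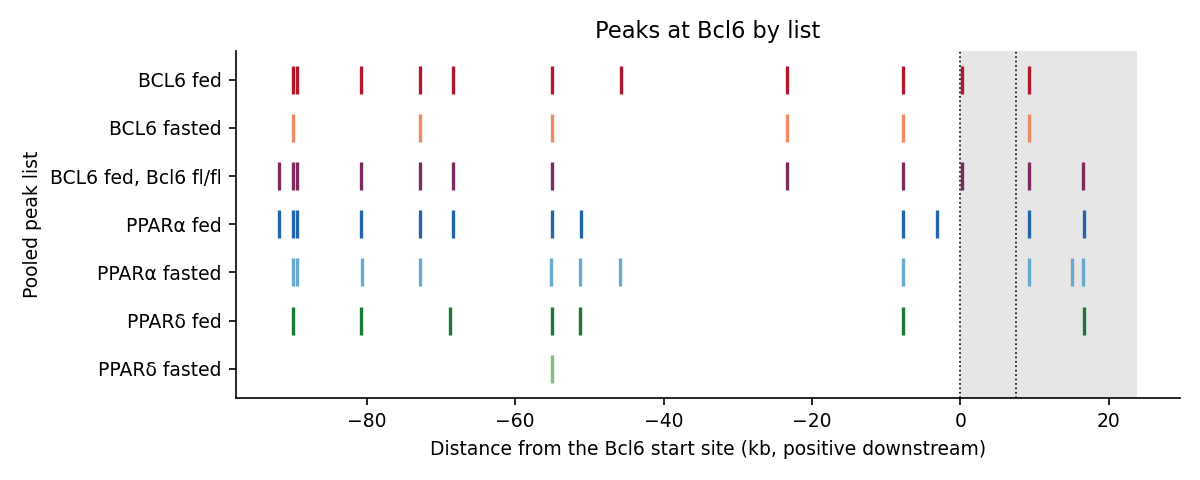
Peak centers at *Bcl6* in each pooled list (rows) against the distance in kb from the upstream curated TSS (x axis, positive downstream), with the gene in gray and both curated TSSs as dotted lines. The fed BCL6 row has 11 marks and the fasted BCL6 row 6, and the mark just inside the gene is present in both fed BCL6 rows only.

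The exon 1 site was the only BCL6 peak of the 10 genes within 1000 bp of a TSS in fed WT livers, which makes 3.03% of the 33 peaks. Over the whole fed list, 5.04% of peaks lay that near a TSS. In fasted WT livers 0 of 22 BCL6 peaks at the 10 genes did, against 5.63% of the list, and in Bcl6 fl/fl livers 3 of 43, against 8.99%. For PPARα the counts were 1 of 40 in fed and 2 of 51 in fasted livers, against 10.5% and 18.0%, and for PPARδ 1 of 16 and 1 of 7, against 7.90% and 10.0%. Peaks at the 10 genes were thus mostly distal, as were those of the whole lists. The median distance to the nearest TSS was 45.8 kb for fed BCL6 at the 10 genes, where the whole list had 26.9 kb. *Bcl6* and *Bach2* held 25 of these 33 peaks, and the median without them was not computed. The peak spanned chr16:23988512-23988728, with its center in the 5′ untranslated part of exon 1, and was called in fed WT and in fed Bcl6 fl/fl livers. It was not called in fasted livers, and neither PPAR was called there in either state. Windows of 200 bp at peak centers were searched on both strands for the BCL6 element TTCCTAGAA with at most 1 mismatch, for the overlapping STAT-type element TTCNNNGAA with no mismatch, and for the PPAR repeat, AGGTCA written again after 1 base, with at most 2 mismatches. The exon 1 window held 4 matches to the BCL6 element, 1 of them without a mismatch, and the same 4 places matched the STAT-type element. Of all 15642 fed BCL6 windows, 2 held 4 or more BCL6 elements, or 0.0128%. The sequences that carry these results are given here from the mm10 plus strand, in lower case, with matches to any of the 3 elements in capitals. For the untranslated exon, only 28 bases around 2 of its elements are shown.
*Bcl6* exon 1, chr16:23988613-23988640, the site called for fed BCL6 alone: acTTCTAAGAAccccagTTCTAAGAAtc
*Bcl6* 7.71 kb upstream, chr16:23996510-23996726, the site with a PPAR repeat beside a BCL6 element: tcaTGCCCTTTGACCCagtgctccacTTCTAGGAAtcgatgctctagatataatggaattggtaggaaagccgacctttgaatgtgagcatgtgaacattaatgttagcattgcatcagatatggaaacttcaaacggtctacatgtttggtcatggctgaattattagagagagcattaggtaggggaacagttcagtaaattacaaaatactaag
*Bcl6* 23.3 kb upstream, chr16:24012070-24012286, the site called for BCL6 alone in both states: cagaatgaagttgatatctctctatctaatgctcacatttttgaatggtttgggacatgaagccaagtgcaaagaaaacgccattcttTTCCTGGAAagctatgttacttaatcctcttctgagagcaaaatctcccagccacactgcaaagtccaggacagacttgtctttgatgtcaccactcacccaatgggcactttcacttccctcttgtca
The site 7.71 kb upstream was called in 5 of the 6 WT lists, all but fasted PPARδ, and its capitals are the PPAR repeat followed by TTCTAGGAA, the BCL6 element read on the other strand without a mismatch. The site 23.3 kb upstream had no PPAR peak in either state, and its capitals are a single BCL6 element. The sites 72.8 and 89.4 kb upstream held TTCTAGGGA, a match with 1 mismatch on the minus strand. In total 5 of the 11 BCL6 sites at *Bcl6* held a BCL6 element. Over all sites the share was 30.6% where BCL6 was called alone and 10.7% where it was called with a PPAR.

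The upstream sites of *Bcl6* run into the interval that separates it from *Lpp*, a LIM domain gene on the opposite strand. That interval of 404 kb held 25 fed BCL6 peaks, of which 9 lay within 100 kb of the upstream *Bcl6* TSS. By counts over the 7 lists, the genes most like *Bcl6* were *Vegfa*, *Atxn1*, *Lifr*, *Zfp608* and *Nrp1*, at distances of 0.50 to 0.75 on the log2(count + 1) scale. *Vegfa*, the vascular growth factor gene, had 9 fed and 6 fasted BCL6 peaks, 13 and 11 PPARα peaks and 5 and 1 PPARδ peaks.

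*Prdm1* encodes Blimp-1, the factor that drives plasma cell differentiation and that BCL6 represses in B cells. It lies on the minus strand at chr10:44437174-44528558. BCL6 had 4 peaks there in fed WT livers, 3 in fasted WT livers and 4 in fed Bcl6 fl/fl livers. PPARα had 2 in each state and PPARδ had none. At *Prdm1* BCL6 thus had more peaks than PPARα in both states, the reverse of the order over the whole lists, where PPARα had 21410 fed and 29085 fasted peaks and BCL6 had 15642 and 9613. *Prdm1* had 5 joined sites, of which BCL6 was called at 4. The 3 kept in both states lay in intron 2, 3.68 kb downstream of the TSS, and 15.7 and 18.6 kb upstream, where predicted transcripts place the first intron. The fourth, 35.2 kb downstream of the TSS and beyond the end of the gene, was called in fed livers only for BCL6 and in both states for PPARα. PPARα was not called in either state in intron 2 or 18.6 kb upstream. The intron 2 peak is shown because it is a BCL6 site without a PPAR at the best known lymphocyte target, and its capitals mark a STAT-type element.
*Prdm1* intron 2, chr10:44454958-44455174: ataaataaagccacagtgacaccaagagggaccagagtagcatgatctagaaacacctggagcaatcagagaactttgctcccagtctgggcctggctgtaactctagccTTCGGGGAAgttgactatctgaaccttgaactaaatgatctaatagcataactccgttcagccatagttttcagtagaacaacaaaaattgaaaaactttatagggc

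*Irf4* encodes the interferon regulatory factor that acts with Blimp-1 in plasma cells. None of the 7 lists had a peak in its territory of 144 kb. *Cd80* encodes a costimulatory ligand of activated B cells, and its territory of 40.1 kb was likewise without a peak. Genes without a peak were common, since only 29.0% of all genes had a fed BCL6 peak and 47.6% a fasted PPARα peak. Since the lists hold only peaks that passed the authors' threshold, weaker occupancy at these genes would not be seen.

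*Bach2*, which encodes a BTB domain repressor that restrains plasma cell differentiation alongside BCL6, held the most peaks of the 10 genes. It lies on the plus strand at chr4:32238413-32586109. BCL6 had 14 peaks in fed WT livers, 10 in fasted WT livers and 17 in fed Bcl6 fl/fl livers. PPARα had 16 and 18, and PPARδ had 4 and 3. Only 0.124% of all genes had as many fed BCL6 peaks or more. All 21 joined sites lay inside the annotated gene, 9 of them within the curated transcript and 12 upstream of its TSS in the first exon or intron of predicted transcripts. For 8 of the 9 within the curated transcript, the nearest TSS was that of *Gja10*, a connexin gene beyond the 3′ end of *Bach2*. Without the gene body in the rule, 1 of the 14 fed BCL6 peaks stayed with *Bach2*, the site 89.2 kb downstream of the TSS, so the count at this gene rests on that clause.

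The *Bach2* sites fell into groups at both ends of the gene. A first group of 12 lay between 102 and 179 kb upstream of the curated TSS, and a second of 9 between 89.2 and 159 kb downstream. The curated start site itself had no peak in any list within 1000 bp. BCL6 was called at 15 of the 21 sites, at 9 in both states, at 5 in the fed state alone and at 1 in the fasted state alone. Of those 15, 13 were PPARα sites as well. The sites at chr4:32246800-32247096 and chr4:32570918-32571188 were called in all 6 WT lists. The upstream one is shown for its PPAR repeat, in capitals, and it held no BCL6 or STAT-type element.
*Bach2* 170 kb upstream, chr4:32246846-32247062, the fed BCL6 peak: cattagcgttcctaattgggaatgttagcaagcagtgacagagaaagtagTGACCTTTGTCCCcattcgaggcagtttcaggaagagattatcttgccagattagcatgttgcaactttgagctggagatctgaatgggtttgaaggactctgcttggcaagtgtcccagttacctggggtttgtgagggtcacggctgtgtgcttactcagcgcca

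**Figure D4:**
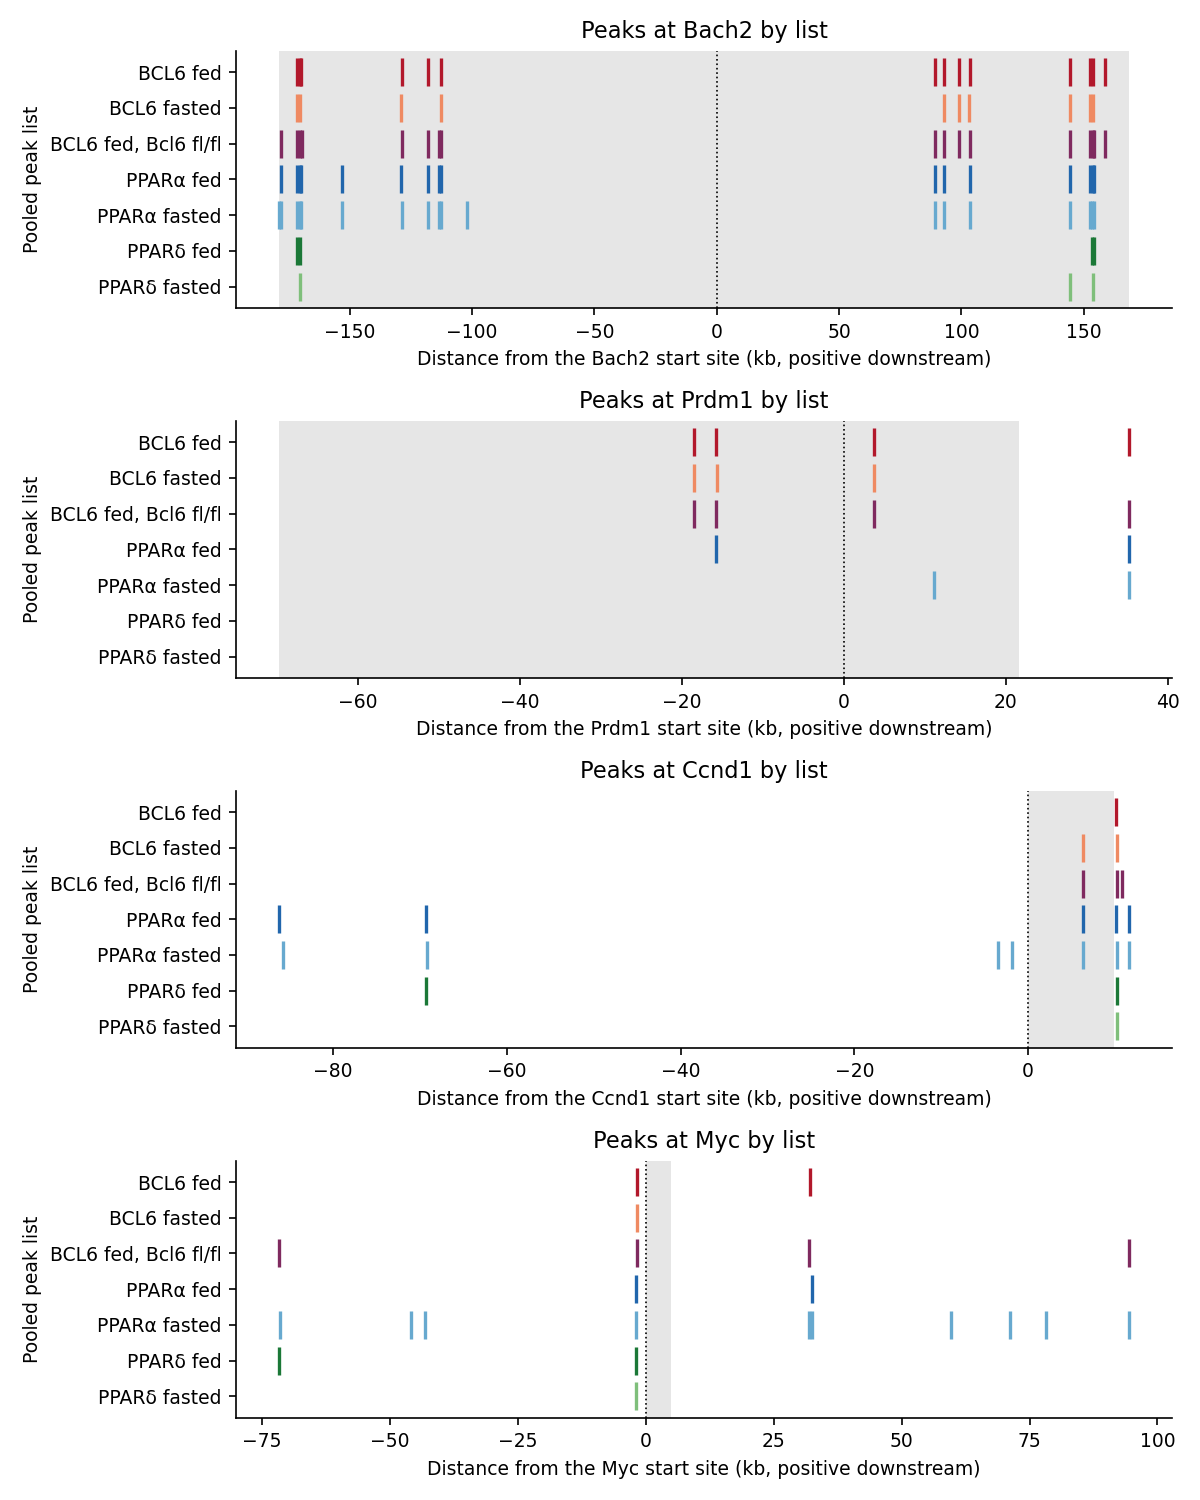
Peak centers at *Bach2*, *Prdm1*, *Ccnd1* and *Myc* (panels) in each pooled list (rows) against the distance in kb from the curated TSS (x axis, positive downstream, dotted line at 0), with the annotated gene in gray. *Bach2* peaks lie in 2 groups away from the TSS, and the fasted PPARα row of *Myc* has 10 marks where the fed row has 2.

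The inhibitors of cyclin-dependent kinases had few BCL6 peaks, in short territories of 42.2 kb for *Cdkn1a* and 41.9 kb for *Cdkn1b*. *Cdkn1a* encodes p21, the cell cycle inhibitor that BCL6 represses in germinal center B cells. It had 1 BCL6 peak in fed WT livers, 17.4 kb upstream of the TSS, none in fasted WT livers and 2 in fed Bcl6 fl/fl livers. Over its territory these few peaks made 23.7 per Mb in fed WT and 47.4 per Mb in fed Bcl6 fl/fl livers. The values over all genes were 7.67 and 8.78. The single WT peak was not called in Bcl6 fl/fl livers, and the 2 peaks of Bcl6 fl/fl livers, 12.0 kb upstream of the first curated TSS and in intron 1, 0.935 kb past the second, were not called in WT livers. The BCL6 lists thus had no peak at *Cdkn1a* in common. PPARα had 3 peaks at *Cdkn1a* in the fed state and 2 in the fasted, and PPARδ had 1 in each, in intron 1. *Cdkn1b*, which encodes p27, had no BCL6 peak in any list, and a single fasted PPARα peak 0.169 kb upstream of its TSS.

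*Ccnd1* and *Ccnd2* encode D cyclins, which carry cells through G1. *Ccnd1* had 1 BCL6 peak in fed WT livers, 2 in fasted WT livers and 3 in fed Bcl6 fl/fl livers, so that it was the only gene of the 10 with more fasted than fed BCL6 peaks. PPARα had 5 and 7 peaks there, and PPARδ had 2 and 1. The fed BCL6 peak lay 10.2 kb downstream of the TSS, past the end of *Ccnd1* and inside the neighboring gene *LTO1*, at a site called in all 6 WT lists. The fasted-only BCL6 site lay in intron 4 and was called for PPARα in both states and in the fed Bcl6 fl/fl list. *Ccnd2* had no peak in the 6 WT lists and 1 BCL6 peak in fed Bcl6 fl/fl livers, 0.862 kb upstream of the curated TSS.

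*Myc*, the growth regulator that BCL6 represses in germinal centers, had 2 BCL6 peaks in fed WT livers, 1 in fasted WT livers and 4 in fed Bcl6 fl/fl livers. PPARδ had 2 and 1. PPARα had 2 peaks in fed livers and 10 in fasted livers, and 1.83% of all genes had as many fasted PPARα peaks or more. The size of this rise depended on the reach of 100 kb. With a reach of 50 kb *Myc* had 2 fed and 5 fasted PPARα peaks, and with 1 Mb 25 and 33. Of the 10 PPARα sites at *Myc*, 8 were called in fasted livers only and 2 in both states. Over all PPARα sites, 35.8% were called in fasted livers only. At *Bcl6* this held for 2 of 14 PPARα sites, at *Bach2* for 3 of 19 and at *Ccnd1* for 3 of 8. The fasted-only sites of *Myc* were spread from 71.5 kb upstream to 94.5 kb downstream, and 4 of them lay inside the noncoding gene *Pvt1*. The site nearest to the TSS, 1.88 kb upstream, was called in all 6 WT lists and in Bcl6 fl/fl livers. Its fed BCL6 peak is shown because it is the most promoter-near site of the 10 genes that all 3 factors held in both states, and it had no match to any of the 3 elements.
*Myc* 1.88 kb upstream, chr15:61983470-61983686: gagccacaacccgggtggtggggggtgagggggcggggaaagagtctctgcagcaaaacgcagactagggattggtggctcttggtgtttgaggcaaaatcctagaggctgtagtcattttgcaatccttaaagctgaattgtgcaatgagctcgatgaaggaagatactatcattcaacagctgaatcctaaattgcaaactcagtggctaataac

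To compare feeding states, fed peaks were matched to fasted peaks of the same factor with a center within 200 bp. Of 33 fed BCL6 peaks at the 10 genes, 20 were also called in fasted livers, or 60.6% (exact 95% binomial interval 42.1 to 77.1%). Over the whole fed BCL6 list 48.9% were, which lies inside that interval. These intervals cover counting error only, since peaks at a shared gene are not independent and the lists hold no replicates. By gene, 6 of 11 were kept at *Bcl6*, 9 of 14 at *Bach2*, 3 of 4 at *Prdm1*, 1 of 2 at *Myc*, 1 of 1 at *Ccnd1* and 0 of 1 at *Cdkn1a*. In the other direction, 20 of the 22 fasted BCL6 peaks were called in fed livers, or 90.9% (70.8 to 98.9%), against 79.6% of the whole fasted list. The 2 without a fed partner lay at *Bach2* and *Ccnd1*. A peak near the calling threshold can drop out of 1 list without a change in occupancy, and the part of this in the counts was not tested.

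PPARα kept more of its peaks and PPARδ fewer. Of 40 fed PPARα peaks at the 10 genes, 33 were called in fasted livers, or 82.5% (67.2 to 92.7%), against 79.9% of the list. Of 51 fasted PPARα peaks, 33 were called in fed livers, or 64.7% (50.1 to 77.6%), against 58.8%. Of 16 fed PPARδ peaks, 6 were called in fasted livers, or 37.5% (15.2 to 64.6%), against 20.9%. Of 7 fasted PPARδ peaks, 6 were called in fed livers, or 85.7% (42.1 to 99.6%), against 63.8%. Each whole-list share lay inside its interval. Peak numbers moved in the same directions at the 10 genes as in the lists. From fed to fasted livers, BCL6 peaks fell by 33.3% at the 10 genes and fell by 38.5% in all, PPARδ peaks fell by 56.2% and fell by 67.3%, and PPARα peaks rose by 27.5% and 35.8%.

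**Figure D5:**
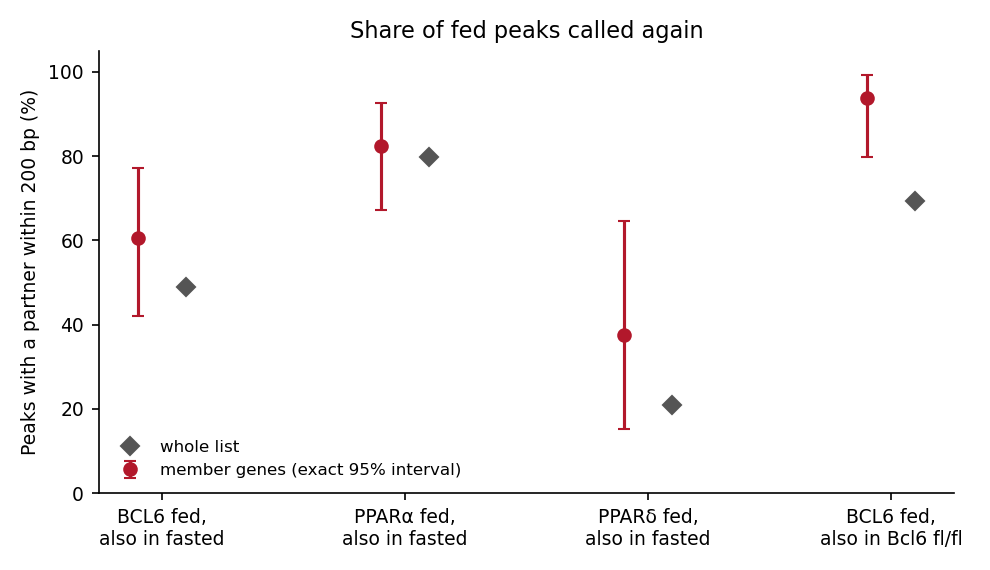
Share of fed peaks with a partner of the same factor within 200 bp in the second list (y axis, percent), for peaks at the 10 genes (red points with exact 95% binomial intervals) and for the whole fed list (gray diamonds). The first 3 comparisons are with fasted WT livers, where the gray value lies inside each interval, and the last is BCL6 in fed Bcl6 fl/fl livers, where 93.9% at the 10 genes stands beside 69.4% of the list.

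The fed Bcl6 fl/fl list is a second map of BCL6 in the fed state. Of the 33 fed WT peaks at the 10 genes, 31 were called there as well, or 93.9% (79.8 to 99.3%), against 69.4% of the whole fed WT list, a share below that interval. The 2 that were not lay 45.8 kb upstream of *Bcl6* and 17.4 kb upstream of *Cdkn1a*. All 14 at *Bach2* and all 4 at *Prdm1* were called again, as was the exon 1 site of *Bcl6*. Of 43 Bcl6 fl/fl peaks, 31 were called in fed WT livers, or 72.1% (56.3 to 84.7%), against 62.2% of that list. At the 10 genes, 11 Bcl6 fl/fl peaks had no WT BCL6 peak in either state within 200 bp, and 9 of these had a WT PPARα peak there. The other 2 lay at *Ccnd2* and 10.8 kb downstream of the *Ccnd1* TSS. How often such peaks had a WT PPARα peak over the whole Bcl6 fl/fl list was not counted. At *Bcl6*, 1 of the 11 had its center in exon 5, next to the loxP sites that the methods place between exons 5 and 6, and PPARα was called at that place in WT livers in both states. Matched to fasted WT livers in place of the fed WT list, 21 of the 43 Bcl6 fl/fl peaks were kept, or 48.8% (33.3 to 64.5%), against 44.3% of that list. Of the 22 fasted WT peaks, 21 were called in Bcl6 fl/fl livers, or 95.5% (77.2 to 99.9%), against 80.4%.

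Over the 10 genes there were 66 joined sites among 38462 in all. *Bach2* had 21, *Bcl6* 17, *Myc* 11, *Ccnd1* 8, *Prdm1* 5, *Cdkn1a* 3 and *Cdkn1b* 1. BCL6 was called at 35 sites, and at 20 of these in both states, at 13 only in the fed and at 2 only in the fasted state. Over all BCL6 sites, 43.6% were called in both states, 45.3% in fed and 11.0% in fasted livers only. The 17 PPARδ sites leaned to the fed state, with 10 called in fed livers only, or 58.8% (32.9 to 81.6%), against 70.7% of all PPARδ sites. PPARα was called at 29 of the 35 BCL6 sites, or 82.9% (66.4 to 93.4%), against 77.5% of all BCL6 sites. PPARδ was called at 10 of the 35, or 28.6% (14.6 to 46.3%), against 26.9%. At the 13 sites where BCL6 was called in fed livers only, PPARα was called in both states at 6, in fasted livers only at 3, in fed livers only at 2 and not at all at 2. Over all 7968 such sites the shares were 43.0%, 9.99%, 14.3% and 32.7%. At the 20 sites with BCL6 in both states, PPARα was called in both states at 15, or 75%, and not at all at 4, where the shares over all such sites were 78.2% and 10.5%.

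Sites were also sorted by the factors called there in either state. PPARα alone was called at 24 of the 66 sites, against 45.3% of all sites, and BCL6 with PPARα at 19, against 23.4%. All 3 factors were called at 10, against 12.1%, PPARα with PPARδ at 5, against 6.03%, PPARδ alone at 2, against 2.97%, and BCL6 with PPARδ at 0, against 0.224%. BCL6 was called without either PPAR at 6 of the 66, against 10.0% of all sites, with 2 each at *Bcl6*, *Prdm1* and *Bach2*. Of the 6, the *Bcl6* exon 1 site and the site 23.3 kb upstream of *Bcl6* held a BCL6 element, and these and the *Prdm1* intron 2 site held a STAT-type element. Over all 3862 sites with BCL6 alone, 30.6% held a BCL6 element and 25.2% a STAT-type element. Where BCL6 was called with a PPAR, 4 of the 29 sites at the 10 genes held a BCL6 element, against 10.7% of such sites in all. At the other end, 5 of the 66 sites were called for all 3 factors in both states, or 7.58% (2.51 to 16.8%), against 1.76% of all sites. They lay 55.1 kb upstream of *Bcl6*, 1.88 kb upstream of *Myc*, 10.2 kb downstream of the *Ccnd1* TSS and at 2 places in *Bach2*. Only the *Bach2* site shown above had a PPAR repeat among these 5, and none of the 5 had a BCL6 or STAT-type element.

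Counted by peaks, 6 of the 33 fed BCL6 windows at the 10 genes held a BCL6 element, or 18.2% (6.98 to 35.5%). Of all fed BCL6 windows 16.0% did, and of windows 1000 bp to either side 7.08%. The pooled share came mostly from *Bcl6*. Outside *Bcl6*, the only joined WT BCL6 site with the element was chr4:32247532-32247786 in *Bach2*. A STAT-type element was present in 5 of 33, or 15.2% (5.11 to 31.9%), against 14.8% of all and 6.45% of flanking windows. A PPAR repeat was present in 5 of 33 as well, against 11.0% and 3.10%. In fasted livers 3 of 22 BCL6 windows held a BCL6 element, against 16.2% of the list, and in Bcl6 fl/fl livers 10 of 43, against 16.4%. A STAT-type element was present in 3 of 22 and 9 of 43, against 14.2% in both lists, and a PPAR repeat in 3 of 22 and 6 of 43, against 11.9% and 11.4%. A match says only that the letters are present in the window.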

How the data were processed

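ChIP-seq peak positions for BCL6, PPARα and PPARδ were taken from the 7 deposited lists, whose unit is the start and end of each peak in mm10. Per the study's methods, the authors aligned reads with Bowtie, kept unique reads and 1 read per start position, pooled the 3 libraries of a group to find peaks against input with HOMER, and kept peaks that passed an enrichment and false discovery rate threshold with DESeq2 on the single libraries. Widths are fixed within a list, so positions carry no height. Read depth is unknown from these files, and no interval for occupancy can be given. The other samples of the 59 in the series were not used here.

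Peaks were assigned to 21000 genes with 26032 curated TSSs of RefSeq GRCm38.p6 (mm10). A gene's territory is its body plus the positions nearest to its TSSs within 100 kb. Positions were read as 1-based. Centers within 200 bp were joined by single linkage. Element matches were counted in RefSeq sequence. Shares have exact 95% binomial intervals. No test was run, since each group is 1 pooled list. Routines were tested on simulated data. Python 3.11.15, NumPy 2.4.6, SciPy 1.17.1, pysam 0.24.0, samtools 1.23.1 and Matplotlib 3.10.9 were used. All 10 genes are named, with the 5 of the wider list with most fed BCL6 peaks, genes of that list without a BCL6 peak, and the 5 genes nearest to *Bcl6* in counts over the 7 lists. Of 12 hepatocyte markers, *Tf* did not match by symbol. Some single genes of the wider and marker lists are counted but not reported here by name. The genes, lists and alternatives were chosen with earlier results of these data known.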

Additional observations from a re-analysis of the deposited data

How the results depend on the processing

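No paired analysis was possible because the replicates of a group were pooled into 1 list, which also leaves no replicate to omit and no score for a stricter threshold. The share kept by fasted livers was 50.7 to 63.6% for BCL6, 75 to 86.7% for PPARα and 32.3 to 55.6% for PPARδ over all alternatives but the exchange of the fed list (48.8%), and the fed WT peaks called in Bcl6 fl/fl livers were 86.6 to 94.3%. BCL6 sites with PPARα were 77.1 to 83.8%. Leaving out *Bcl6*, *Bach2* or *Rora*, and the exchange of lists, were chosen after seeing the data. Counts of assigned peaks depended on the rule. Without the gene body they were 20, 12 and 27 for BCL6 in fed, fasted and Bcl6 fl/fl livers, 25 for fed PPARα and 4 for fasted PPARδ. With a reach of 1 Mb they were 67, 38 and 78 for BCL6, 76 and 88 for PPARα and 31 and 11 for PPARδ, with 117 joined sites, and with 50 kb fed PPARδ had 9. Fewer mismatches left the BCL6 element in 6.06% of fed WT and 9.30% of Bcl6 fl/fl windows, against 2.05% and 2.35% of the whole lists. They left the PPAR repeat in 3.03% and 2.33%, against 2.19% and 2.30%. In 50 bp windows the PPAR repeat was in 3.03% of fed WT and in 0 of the fasted and Bcl6 fl/fl windows at the 10 genes. Over the whole lists it was in 2.77%, 2.99% and 2.97%. In all, 80 recomputed values of the main results stayed within the interval or within 1.5 times of the value reported, and the 21 given here did not.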

Other observations

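Beyond 100 kb, 16 more fed BCL6 peaks lay between *Bcl6* and *Lpp*, with 8 in fasted WT livers and 17 in fed Bcl6 fl/fl livers. PPARα had 16 and 17 there, and PPARδ 7 in fed and 0 in fasted livers. Over the whole interval fed BCL6 had 61.8 peaks per Mb, against 5.74 over the genome. The PPARs were dense there too, with 64.3 against 7.86 for fed PPARα and 32.1 against 2.69 for fed PPARδ. For PPARδ in that interval the list of fed livers held 13 peaks and the list of fasted livers 1.

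With a reach of 1 Mb, *Myc* went from 2 to 24 fed BCL6 peaks, from 1 to 13 fasted ones, and from 2 and 10 to 25 and 33 PPARα peaks in fed and fasted livers. *Irf4* and *Cd80* stayed at 0 in all 7 lists at that reach, and *Cdkn1b* at 0 in the BCL6 lists. For *Cd80* and *Cdkn1b* this was fixed by the rule. Their territories of 40.1 and 41.9 kb are bounded on both sides by nearer TSSs of other genes, so a longer reach could add no peak.

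Besides the *Bcl6* exon 1 peak, 1 fed BCL6 window held 4 or more BCL6 elements, 8862 bp from the TSS of *Hdac6*, a cytoplasmic deacetylase gene. For the STAT-type element there were 3 such windows of 15642, the *Bcl6* exon 1 peak, 1 at 36 bp from the TSS of *Cish*, a cytokine signaling inhibitor that STAT5 induces, and 1 at 7621 bp from that of *C2cd4a*. These genes were named after their values were seen.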
